A study of Mus musculus with 6 samples.

Results

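The 10 genes described here encode secreted growth factors for blood vessels and for the cells that wrap them: the VEGF family ligands Vegfa, Vegfb, Vegfc and Pgf, the angiopoietins Angpt1 and Angpt2, and the PDGF chains Pdgfa, Pdgfb, Pdgfc and Pdgfd. They were taken by name, with earlier results of these data known, from the 20173 genes of a count table, and 7 of them were abundant enough to be tested among 12152 genes. The table holds RNA-Seq counts from 6 cultures described as primary neurons of the sympathetic ganglion, prepared from male mice 3 weeks old and kept in culture for 4 to 5 days. The control group, Slit2fl/fl, carries floxed Slit2 alleles (3 libraries), and the group Slit2th carries the same floxed alleles together with a Cre recombinase driven by the promoter of tyrosine hydroxylase, so that Slit2 is deleted in cells in which that promoter is or has been active (3 libraries). Cells of a culture without that promoter activity keep an intact Slit2 gene. Whether the libraries of a group came from separate animals is not given in the sources used here, so p-values measure only the spread between these libraries, which may be technical.

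VEGF ligands act through receptor tyrosine kinases on endothelial cells, with neuropilins as co-receptors: Vegfa drives vessel sprouting and permeability, Vegfc drives lymphatic growth, and Vegfb and Pgf bind Flt1. Angiopoietin 1 activates the endothelial receptor Tek and steadies the vessel wall, whereas angiopoietin 2 can oppose it. PDGF chains form dimers that bind Pdgfra or Pdgfrb on mesenchymal, mural and glial cells; endothelial Pdgfb recruits pericytes, and PDGF-A acts on Pdgfra-bearing cells. Several of these factors are released in an inactive form and must be cut by proteases, and Vegfa is a classic target of the oxygen-sensing transcription factor HIF1.

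The RefSeq table of upstream sequences (assembly GRCm38.p6) held windows for 7 of the 10 ligands; Angpt1, Angpt2 and Pdgfb had none. The 250 bases before the start site are shown for Vegfa, the ligand with the best known oxygen-dependent control, and for Vegfb, the VEGF ligand with the highest level in these cultures, because these windows overlap no annotated exon. Capitals mark the GC box, GGGCGG or its reverse complement CCGCCC, the letters bound by Sp family factors. The core of the hypoxia response element, ACGTG or its reverse complement CACGT, was searched on both strands as well, and no match of one motif overlapped a match of the other.
Vegfa, minus strand, chr17:46032378-46032627: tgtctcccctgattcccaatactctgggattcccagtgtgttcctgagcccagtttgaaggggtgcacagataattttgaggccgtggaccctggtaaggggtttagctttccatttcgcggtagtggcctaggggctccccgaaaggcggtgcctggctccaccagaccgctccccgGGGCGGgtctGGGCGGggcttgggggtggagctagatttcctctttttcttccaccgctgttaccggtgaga
Vegfb, minus strand, chr19:6987652-6987901: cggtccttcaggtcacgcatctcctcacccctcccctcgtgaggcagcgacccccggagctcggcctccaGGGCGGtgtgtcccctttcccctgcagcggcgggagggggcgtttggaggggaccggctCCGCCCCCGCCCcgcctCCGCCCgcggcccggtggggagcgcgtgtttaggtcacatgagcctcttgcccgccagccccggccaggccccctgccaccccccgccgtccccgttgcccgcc
The Vegfb window held 4 GC boxes at a GC content of 76.4%, and the Vegfa window held 2 at 59.2%. Among all 32851 windows of this length, 32.7% held a GC box and 16.6% held the hypoxia core. Pdgfa had 2 windows, with 2 GC boxes at 72.4% GC and 1 GC box at 66.4% GC. Vegfc held 2 GC boxes in its window, Pgf held 2 in 1 of its 2 windows, and the windows of Pdgfc and Pdgfd held neither motif. Only 1 of the 10 windows, before an internal Vegfa start, held the hypoxia core. Of the 250 bases of that window, 218 lie in annotated Vegfa exons. Sequence further upstream than 250 bases was not searched in any ligand. A match describes the letters in these windows and nothing about binding in the cultures.

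The libraries held between 1255939 and 3155406 counts, so that a floor of 3 counts lay between 0.959 and 2.64 CPM, the count scaled to a normalized (TMM) library size of 1e6. This floor covers counting error only, because the reads carried no molecular identifiers. Slit2 itself, the deleted gene, measured 43.7 to 55.0 CPM in the Slit2fl/fl libraries and 11.4 to 15.2 CPM in the Slit2th libraries, without overlap. Its log2 fold change was -1.78 ± 0.37 (SE, unadjusted p = 0.000932, adjusted p = 0.423, edgeR's quasi-likelihood test). Even the deleted gene thus did not pass the adjusted threshold with all libraries. It passed only in the fit without replicate 1 of both groups (adjusted p = 0.00685, same test). The isolation protocol of the study names dorsal root neurons where other passages name sympathetic chains, so the material is not certain, and the neuronal label was checked against markers: Th, the enzyme that defines noradrenergic neurons, had no count in any library, which at 3 counts allows at most 0.959 to 2.64 CPM, and 5 of the other markers on the sympathetic neuron list had 1 to 4 reads in the 6 libraries together. Only 3 of the markers were above the filter: the pan-neuronal tubulin Tubb3 reached 74.8 to 290 CPM, Stmn2, a tubulin regulator of growing axons, 16.3 to 43.1 CPM, and Gap43, a growth cone gene, 15.8 to 31.1 CPM. The 9 glial markers reported here, led by S100b and Cdh19, summed to 4298 to 5042 CPM, fibroblast markers, led by Col1a2 and Dcn, to 2447 to 4815 CPM, and sympathetic neuron markers, nearly all from these 3 genes, to 109 to 351 CPM. Endothelial markers, led by Egfl7 and Emcn, summed to 43.1 to 135 CPM, and mural cell markers, led by Acta2 and Rgs5, to 18.5 to 110 CPM. Both replicates numbered 1 stood apart in some of these: Aif1, a macrophage gene, was at 181 CPM in Slit2th replicate 1 and at 0.639 CPM or less in the other 5 libraries, and Acta2, the smooth muscle actin gene, was at 69.4 CPM in Slit2fl/fl replicate 1 against 7.94 to 14.1 CPM elsewhere. Other macrophage markers did not all follow Aif1, and Csf1r had 0 reads in Slit2th replicate 1. Values without the replicates numbered 1 are given beside several of the results. In RNA from a whole culture, fewer cells of a type and less RNA per cell cannot be told apart.

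One ligand dominated. Pdgfa, the A chain of PDGF, stood at 112 ± 20.6 RPKM (reads per kilobase of merged exon, scaled as CPM, SD, n = 6 libraries), a mean higher than that of 96.7% of the tested genes, and it made up 75.2% to 91.5% of the summed RPKM of the 10 ligands in each library. Vegfb, which signals through Flt1, followed at a mean of 8.94 RPKM. Pdgfc, Angpt1 and Vegfa lay close together at mean levels of 2.08, 1.75 and 1.57 RPKM. Angpt2, Pdgfb, Pgf, Vegfc and Pdgfd, at 0.428, 0.316, 0.225, 0.196 and 0.110 RPKM, were the low members, and their means exceeded those of 0.37% to 7.37% of the tested genes.

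**Figure D1:**
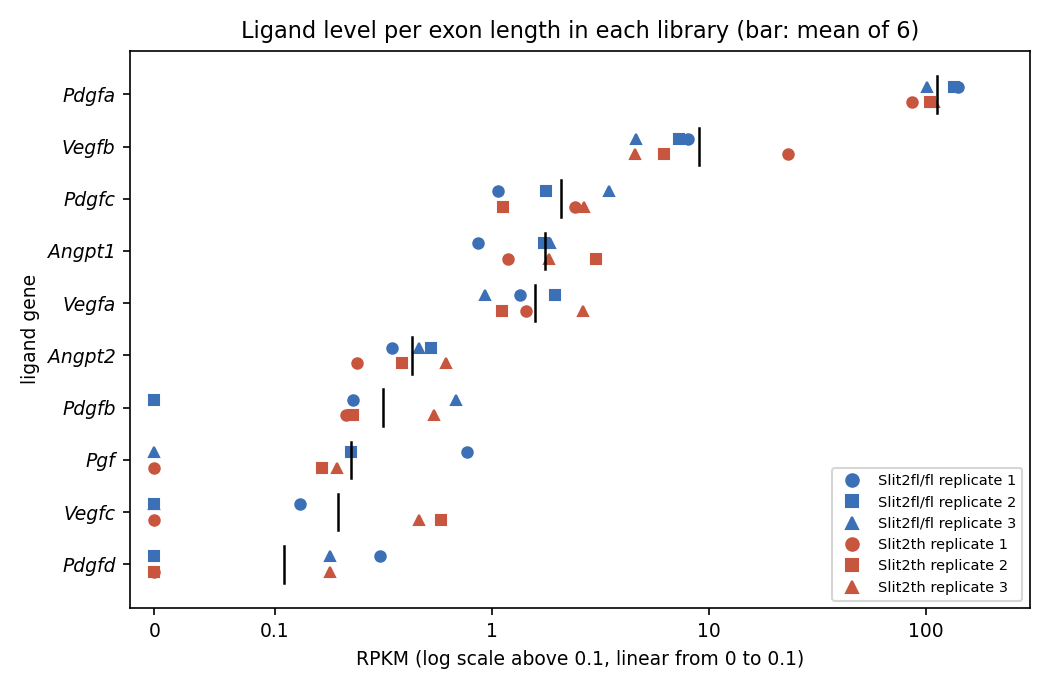
Level of each ligand per exon length (RPKM, log scale above 0.1 and linear from 0 to 0.1) in each of the 6 libraries, with a black bar at the mean of 6. Pdgfa lies between 86.3 and 140.0 RPKM in every library, to the right of all other ligands, and Vegfb in Slit2th replicate 1 (23.0 RPKM) stands apart from its other 5 libraries.

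Neighbours in this order were compared within each library, as the mean difference of log2(RPKM + 0.05). Pdgfa exceeded Vegfb in 6 of 6 libraries by 3.88 on this scale, and the ratio of Pdgfa to the next ligand ran from 3.75 in Slit2th replicate 1 to 23.8. Vegfb exceeded Pdgfc in 6 of 6 libraries by 1.94, and Vegfa exceeded Angpt2 in 6 of 6 by 1.73. For each of these 3 pairs the two-sided exact sign-flip permutation test gave p = 0.03125, the smallest that 6 libraries allow, and 0.0938 after Benjamini-Hochberg adjustment over the 9 neighbouring pairs, so no pair passed 0.05 after adjustment. Pdgfc, Angpt1 and Vegfa did not differ beyond their spread (differences of 0.22 and 0.13 between neighbours, exact permutation p = 0.531 and 0.688), and neither did the pairs below Angpt2 (p = 0.188 to 0.75 by the same exact permutation test). The order was taken from the same values.

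Among the PDGF chains, Pdgfa (ENSMUSG00000025856, minus strand, chr5:138976014-138997370 of GRCm38) measured 437, 417 and 315 CPM across the Slit2fl/fl libraries (replicates 1, 2 and 3) and 269, 324 and 339 CPM across the Slit2th libraries. The 2 highest libraries were Slit2fl/fl and the lowest was Slit2th replicate 1, but the groups overlapped, with Slit2fl/fl replicate 3 below 2 Slit2th libraries. The means were 389.8 ± 65.6 and 311 ± 36.8 CPM (SD, n = 3 each), and edgeR's quasi-likelihood test gave a log2 fold change of -0.33 ± 0.32 (SE, 95% interval -1.04 to 0.39, or 0.487- to 1.31-fold) with a Benjamini-Hochberg adjusted p of 0.68. The two-sided exact permutation test gave p = 0.3, where 3 libraries against 3 cannot go below 0.1. With 4157 counts in all, Pdgfa was the ligand whose counting error was smallest. The fold change stayed negative in each of 20 alternative fits, from -0.52 to -0.11 (-0.16 without replicate 1 of both groups), and was nearest 0 with offsets corrected for GC content. Exons of the antisense gene 6330403L08Rik overlap part of the Pdgfa exons, and with the strand setting of the counting not given, reads of the pair cannot be told apart; that gene was counted at 3.52 to 7.14 CPM.

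Pdgfc, a PDGF whose CUB domain must be cut away before it binds Pdgfra, was next among the chains. Its levels were 5.43, 9.06 and 17.6 CPM in Slit2fl/fl replicates 1 to 3 and 12.3, 5.71 and 13.5 CPM in Slit2th. The libraries interleaved, Slit2fl/fl holding both the lowest and the highest, and the log2 fold change was -0.02 ± 0.59 (SE, 95% interval of the ratio 0.394- to 2.47-fold, adjusted p = 0.99 by edgeR's quasi-likelihood test). Its sign turned in 12 of 20 alternative fits, and it was -0.35 without Slit2fl/fl replicate 1, -0.14 without Slit2th replicate 1 and -0.51 without both. The antisense gene Gm16000, not analysed here, overlaps part of its exons.

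Pdgfb, the chain that recruits pericytes when endothelial cells release it, was found at 3, 0 and 5 reads in the Slit2fl/fl libraries and at 1, 2 and 4 reads in Slit2th, which put 3 of the 6 libraries at or above the floor. It was tested, with a log2 fold change of 0.13 ± 1.05 (SE) and a 95% interval from -2.24 to 2.50 that covers a fall or a rise of more than 4-fold. Pdgfd, the other CUB-domain chain, had 3, 0 and 1 reads in Slit2fl/fl and 0, 0 and 1 in Slit2th, was below the filter and was not tested. Pooled over all 6 libraries, its 5 reads are 0.437 CPM with an exact Poisson 95% interval of 0.142 to 1.02 CPM.

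Of the VEGF ligands, Vegfb (ENSMUSG00000024962, minus strand, chr19:6982473-6987651) gave 12.8, 11.6 and 7.38 CPM in the Slit2fl/fl replicates and 37.0, 10 and 7.32 CPM in the Slit2th replicates. Slit2th replicate 1 alone was high, and the other 5 libraries lay between 7.32 and 12.8 CPM with the groups mixed. The fitted log2 fold change was 0.73 ± 0.65 (SE, 95% interval -0.73 to 2.19, adjusted p = 0.654, edgeR's quasi-likelihood test), and the exact permutation p was 0.9. Without Slit2th replicate 1 it was -0.29, without replicate 1 of both groups -0.13, and with GC-corrected offsets 1.11. The macrophage markers, of which 11 of 13 were tested, summed to 36.9 to 128 CPM in Slit2fl/fl and to 128 to 668 CPM in Slit2th, where the 668 CPM was replicate 1, and no listed marker was at 0 in all libraries. The largest parts of the 668 CPM were Lyz2 (284 CPM), Aif1 (181 CPM) and C1qa (73.9 CPM). Other markers did not single out that library: Csf1r had 0 reads in it. C1qc (1.76 CPM) and Adgre1 (6.16 CPM) were lower there than in Slit2th replicates 2 and 3. Of the 11 tested markers, 10 had a positive log2 fold change, where 5804 of all 12152 tested genes did. At an unadjusted p under 0.05, 5 were higher, against 3.98% of all tested genes. In 4 the Slit2th libraries all lay above the Slit2fl/fl libraries, as in 1060 of all 12152 tested genes. The part of macrophages in the value of Vegfb was not tested.

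Vegfa (ENSMUSG00000023951, minus strand, chr17:46016993-46032369), the principal sprouting factor, was low. It gave 5.75, 8.41 and 3.97 CPM in Slit2fl/fl, from 18, 13 and 7 reads, and 6.16, 4.76 and 11.3 CPM in Slit2th, from 7, 10 and 20 reads. Slit2th replicate 3 was the highest and Slit2fl/fl replicate 3 the lowest, and the remaining 4 libraries mixed. The log2 fold change was 0.30 ± 0.57 (SE, 95% interval -0.98 to 1.58, adjusted p = 0.841, edgeR's quasi-likelihood test) and became -0.15 without Slit2th replicate 3. Pooled within groups, Vegfa stood at 5.90 CPM in Slit2fl/fl (exact Poisson 95% interval 4.18 to 8.10) and at 7.38 CPM in Slit2th (5.20 to 10.2), intervals that cover counting error only.

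Vegfc, the lymphatic growth factor, and Pgf, the placental growth factor, were below the filter. Vegfc had 1, 0 and 0 reads in Slit2fl/fl and 0, 3 and 2 in Slit2th, and 1 library reached 3 counts. Pgf had 7, 1 and 0 reads in Slit2fl/fl and 0, 1 and 1 in Slit2th, so that 7 of its 10 reads came from Slit2fl/fl replicate 1, the most deeply sequenced library. In both genes the groups overlapped at 0 or 1 read, and at this depth no difference was detectable.

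Between the angiopoietins, Angpt1 (ENSMUSG00000022309, minus strand, chr15:42424723-42676977), the Tek agonist, was the higher. Its levels were 4.47, 9.06 and 9.65 CPM in the Slit2fl/fl replicates and 6.16, 15.7 and 9.58 CPM in the Slit2th replicates. The highest library was Slit2th replicate 2 and both replicates numbered 1 were lowest, with overlap between groups. Its log2 fold change was 0.48 ± 0.55 (SE, 95% interval -0.75 to 1.72, adjusted p = 0.725 by edgeR's quasi-likelihood test), or 0.19 without Slit2fl/fl replicate 1 and 0.74 without Slit2th replicate 1. It was positive in all 20 alternative fits, from 0.06 to 0.75, the lowest value coming from GC-corrected offsets with the replicate block. Angpt2 rested on 4, 3 and 3 reads in Slit2fl/fl and 1, 3 and 4 in Slit2th, or 1.64 ± 0.335 and 1.52 ± 0.691 CPM (SD, n = 3 each), with a log2 fold change of -0.04 ± 0.80 (SE), or -0.20 without Slit2fl/fl replicate 1 and 0.19 without Slit2th replicate 1. The long noncoding gene Gm17473, antisense to part of Angpt1, had no count in any library.

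**Figure D2:**
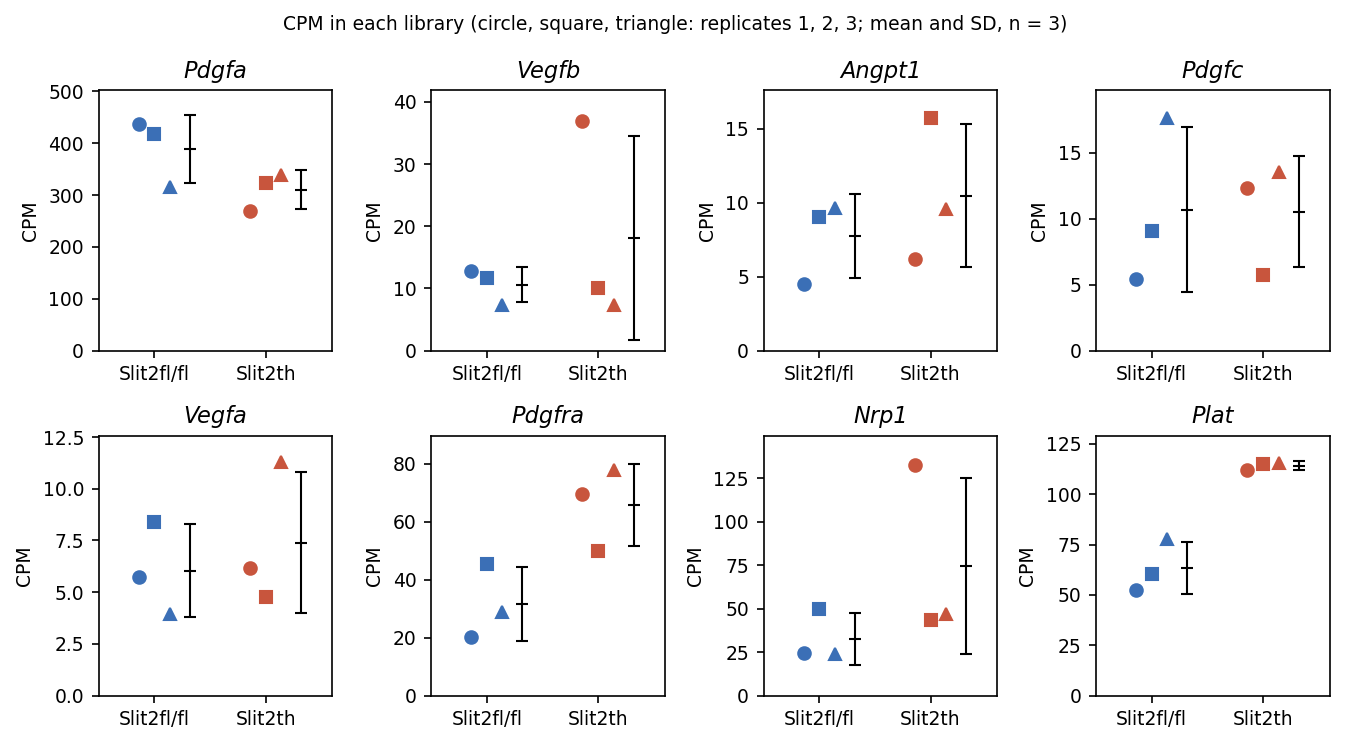
CPM in each library (circle, square and triangle for replicates 1, 2 and 3; blue Slit2fl/fl, red Slit2th) with the mean and SD of 3 libraries in black, for 5 ligands, 2 receptors and the protease Plat. The groups overlap for each ligand and for Nrp1, and they do not overlap for Pdgfra and Plat.

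Counted together, 0 of the 7 tested ligands passed the adjusted threshold of 0.05, as did 0% of all tested genes. At an unadjusted p under 0.05 the count was again 0 of 7, against 10.8% of all tested genes (1308 genes; 484 higher and 824 lower in Slit2th, which is 3.98% and 6.78%). DESeq2 called 34 genes and limma-voom 0 over the whole table, and without replicate 1 of both groups the quasi-likelihood test called 378, with 0 ligands in each case. In none of the 10 ligands were the groups free of overlap, where 18.4% of the tested genes were. Of the 7 log2 fold changes, 4 were positive and 3 negative, with a median of 0.13 against -0.05 for all tested genes. That median lay between -0.20 and 0.31 over the alternative fits. A p above the threshold does not show equal levels, and the intervals of Pdgfb and Angpt2 span more than a 3-fold change in either direction.

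**Figure D3:**
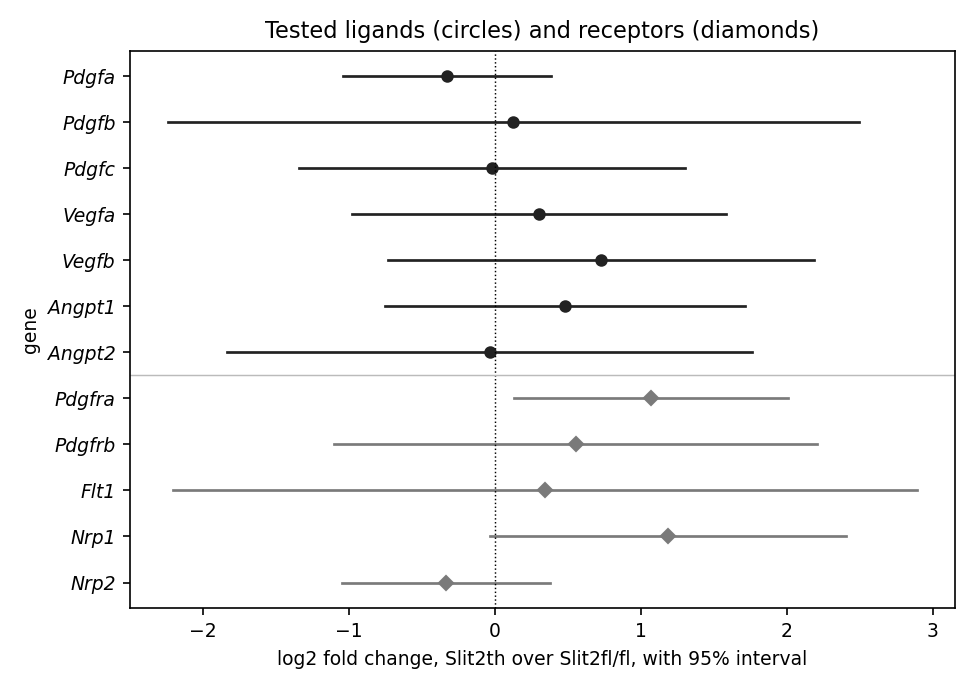
Log2 fold change of Slit2th over Slit2fl/fl with its 95% interval from edgeR's quasi-likelihood fit, for the 7 tested ligands (circles) and the 5 tested receptors (diamonds). Every ligand interval crosses 0; that of Pdgfra (0.13 to 2.01) lies above 0 without adjustment.

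On the receptor side, the 9 receptors and co-receptors of these families fell into a low and a high group. The endothelial kinases were near the floor: Kdr, the main Vegfa receptor, had 2 reads in the 6 libraries together, Flt4, the Vegfc receptor, had 3, Tek, the angiopoietin receptor, had 6, Tie1, its partner, had 8, and Flt1, the receptor of Vegfb and Pgf, had 10. Of these 5, only Flt1 was tested (log2 fold change 0.35 ± 1.13, SE). In contrast, the PDGF receptors and the neuropilins were well above it, with mean levels of 12.1 RPKM for Pdgfrb, 9.22 for Nrp2, 5.47 for Nrp1 and 4.85 for Pdgfra. Per exon length the most abundant ligand, Pdgfa, stood above its receptor Pdgfra. Of the 10 endothelial markers, Egfl7, an endothelial secreted factor, had 568 reads in the 6 libraries and Emcn, a sialomucin of the endothelial surface, 127. Slit2fl/fl replicate 1 alone gave 306 of the Egfl7 reads and 83 of the Emcn reads. The other endothelial markers lay lower, down to 1 read for the tight junction gene Cldn5, chosen after its value was seen. Of the 4 tested, 0 were higher and 1, Emcn, was lower in Slit2th at an unadjusted p under 0.05, against 3.98% and 6.78% of all tested genes.

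Pdgfra, the receptor of PDGF-A and PDGF-C, measured 20.1, 45.3 and 28.9 CPM in Slit2fl/fl replicates 1, 2 and 3, and 69.5, 50.0 and 77.7 CPM in Slit2th. Every Slit2th library lay above every Slit2fl/fl library, which gives the smallest possible exact permutation p of 0.1. Its log2 fold change was 1.07 ± 0.42 (SE, 95% interval 0.13 to 2.01), and edgeR's quasi-likelihood test gave an unadjusted p of 0.0296 with an adjusted p of 0.433, so the difference did not pass. Over the 20 alternative fits it ran from 0.77 to 1.56, with adjusted p from 0.217 to 0.856. Fibroblasts are a usual source of Pdgfra, and 8 of the 10 fibroblast markers were tested, 2 of them higher at an unadjusted p under 0.05 against 3.98% of all tested genes. Their sums were 2447 to 3408 CPM in the Slit2fl/fl libraries against 3227 to 4815 CPM in Slit2th. Their part in the Pdgfra value was not tested. Exons of Gm42802, on the other strand, overlap part of the Pdgfra exons.

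The other receptors overlapped between groups. Nrp1, the co-receptor of several VEGF forms and of class 3 semaphorins, gave 24.3, 49.8 and 23.8 CPM in the Slit2fl/fl libraries against 133, 43.8 and 46.8 CPM in Slit2th. Its log2 fold change of 1.19 ± 0.54 (SE, adjusted p = 0.471, edgeR's quasi-likelihood test) was 0.48 without Slit2th replicate 1, the library at 133 CPM. Pdgfrb, the mural and fibroblast receptor of PDGF-B, gave 74.5, 36.2 and 49.4 CPM in the Slit2fl/fl libraries against 184, 24.8 and 29.3 CPM in Slit2th. Here Slit2th replicate 1 was the highest library and the other Slit2th libraries the lowest, and the log2 fold change of 0.56 ± 0.73 (SE) turned to -0.98 without it. In Slit2th replicate 1 the mural cell markers, 6 of 10 tested, had their lowest sum (18.5 CPM), and the fibroblast markers summed to 3227 CPM. The part of either cell type in the Pdgfrb value was not tested. Nrp2, a co-receptor for VEGF-C, had 138, 99.0 and 128 CPM in the Slit2fl/fl libraries against 92.4, 103 and 94.6 CPM in Slit2th, with a log2 fold change of -0.33 ± 0.32 (SE, adjusted p = 0.674, edgeR's quasi-likelihood test). Of the 5 receptors tested, 1 was higher and 0 were lower at an unadjusted p under 0.05, against 3.98% and 6.78% of all tested genes, and the median of their log2 fold changes was 0.56.

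Of the 10 proteases and cofactors that process these ligands, 7 were tested, 1 was higher and 0 were lower at an unadjusted p under 0.05, against 3.98% and 6.78% of all tested genes, and their log2 fold changes had a median of 0.37. The 1 was Plat, tissue plasminogen activator, which cuts PDGF-C into its active form. Plat measured 52.4, 60.2 and 77.7 CPM in the Slit2fl/fl libraries against 112, 115 and 116 CPM in Slit2th. The SD within Slit2th was 2.08 CPM (n = 3). That is below the counting error of its 127, 242 and 205 reads, so it does not measure how tight the group is. Groups did not overlap in 2 of the 7 tested, against 18.4% of all tested genes. These were Plat and Pcsk5, both higher in Slit2th, and Pcsk5 is named after its value was seen. For Plat the fit gave the following. The log2 fold change was 0.85 ± 0.33 (SE, 95% interval 0.12 to 1.58, unadjusted p = 0.0279, adjusted p = 0.431, edgeR's quasi-likelihood test) and ran from 0.73 to 1.02 over the alternative fits, with adjusted p from 0.105 to 0.841. Furin, a proprotein convertase that cuts PDGF-A and VEGF-C precursors, had a log2 fold change of -0.45 ± 0.61 (SE), which was 0.41 without Slit2fl/fl replicate 1. Adamts2, a procollagen N-proteinase, had 0.37 ± 0.58 (SE), which was -0.001 without Slit2fl/fl replicate 1. The glial markers reported here, 8 of 9 tested and none at 0 in all libraries, summed to 4298 to 4998 CPM in Slit2fl/fl against 4414 to 5042 CPM in Slit2th. These sums leave out part of the glial list and do not describe the glial content of the cultures as a whole, and the part of glial cells in the values of Plat and Pdgfra was not tested. The remaining ligands of these families, Vegfd (-0.14 without Slit2th replicate 1) and Angpt4, gave 25 and 10 reads in all, and log2 fold changes of -0.60 ± 0.89 and 1.32 ± 1.21 (SE), with adjusted p of 0.798 and 0.664 by edgeR's quasi-likelihood test.

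Since Vegfa answers to oxygen sensing, the genes of that pathway were read alongside it. Of 8 oxygen-sensing regulators 7 were tested, with 0 at an unadjusted p under 0.05 in either direction, against 10.8% of all tested genes, and a median log2 fold change of 0.29. Groups did not overlap in 1 of the 7, against 18.4% of all tested genes. This was Hif1an, named after its value was seen. It measured 9.91, 5.82 and 7.38 CPM in the Slit2fl/fl libraries against 3.52, 5.71 and 2.82 CPM in Slit2th (adjusted p = 0.534, edgeR's quasi-likelihood test). Hif1a, the oxygen-regulated subunit of HIF1, measured 46.3, 127 and 98.2 CPM in the Slit2fl/fl libraries against 107, 120.0 and 139 CPM in Slit2th, with overlapping groups and a log2 fold change of 0.44 ± 0.41 (SE, adjusted p = 0.675, edgeR's quasi-likelihood test), or 0.12 without Slit2fl/fl replicate 1. Arnt, its partner subunit, had 0.30 ± 0.38 (0.19 without Slit2fl/fl replicate 1). Egln1, the prolyl hydroxylase that marks the Hif1a subunit for destruction, had -0.03 ± 0.46 (0.27 without Slit2th replicate 1). Both are log2 fold changes with SE.

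Of 21 genes known to be induced by hypoxia, 18 were tested: 0 were higher and 2 were lower in Slit2th at an unadjusted p under 0.05, against 3.98% and 6.78% of all tested genes, and the median log2 fold change was 0.04. The most abundant were Aldoa, a glycolytic aldolase (-0.09 ± 0.31), Bnip3l, a mitophagy receptor (0.20 ± 0.32), and Higd1a, a mitochondrial respiratory factor (-1.46 ± 0.70, each a log2 fold change with SE). Without Slit2fl/fl replicate 1, Aldoa was at -0.004 and Bnip3l at 0.07. Higd1a measured 191, 97.0 and 237 CPM in the Slit2fl/fl libraries against 143, 29.1 and 21.4 CPM in Slit2th, where replicate 1 overlapped the controls. Its log2 fold change was -2.78 without Slit2th replicate 1 (adjusted p = 0.36) and -2.73 without replicate 1 of both groups (adjusted p = 0.000869, edgeR's quasi-likelihood test), the only fit in which a gene of these lists passed the adjustment. Groups did not overlap in 3 of the 18, 2 higher (Ndrg1 and Mxi1) and 1 lower (Slc2a1), against 18.4% of all tested genes. The 2 genes lower at an unadjusted p under 0.05 were Slc2a1, the glucose transporter GLUT1, and Eno1, a glycolytic enolase. These 4 genes are named here after their values were seen. Slc2a1 measured 26.9, 23.3 and 22.7 CPM in the Slit2fl/fl libraries against 13.2, 9.52 and 11.3 CPM in Slit2th. Its log2 fold change was -1.11 ± 0.39 (SE, unadjusted p = 0.0193, adjusted p = 0.423, edgeR's quasi-likelihood test). Eno1, for which a copy named Eno1b is annotated, so that the counting may have split reads between them, had -2.38 ± 0.86 (SE, adjusted p = 0.423, edgeR's quasi-likelihood test), with 153 CPM in Slit2fl/fl replicate 1 against 5.24 to 30.1 CPM in the other 5 libraries. Over the 5 lists together, 39 of 50 genes were tested, 4 had an unadjusted p under 0.05, where 10.8% of all tested genes did, and 0 passed the adjustment in the fit of all 6 libraries.

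The fold changes of the ligands under other normalizations, filters, tests and left-out libraries are plotted per gene. Only Pdgfa and Angpt1 kept their sign in every fit, and each of the other 5 tested ligands turned sign in at least 2. Pdgfb and Angpt2 could be fitted in 14 and 19 of the 20 alternatives, since other filters or fewer libraries removed them. In each alternative 0 of the tested ligands had an adjusted or an unadjusted p under 0.05. DESeq2 gave no adjusted p for Vegfa, Angpt2 and Pdgfb, so for these only the unadjusted p could be read in that fit.

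**Figure D4:**
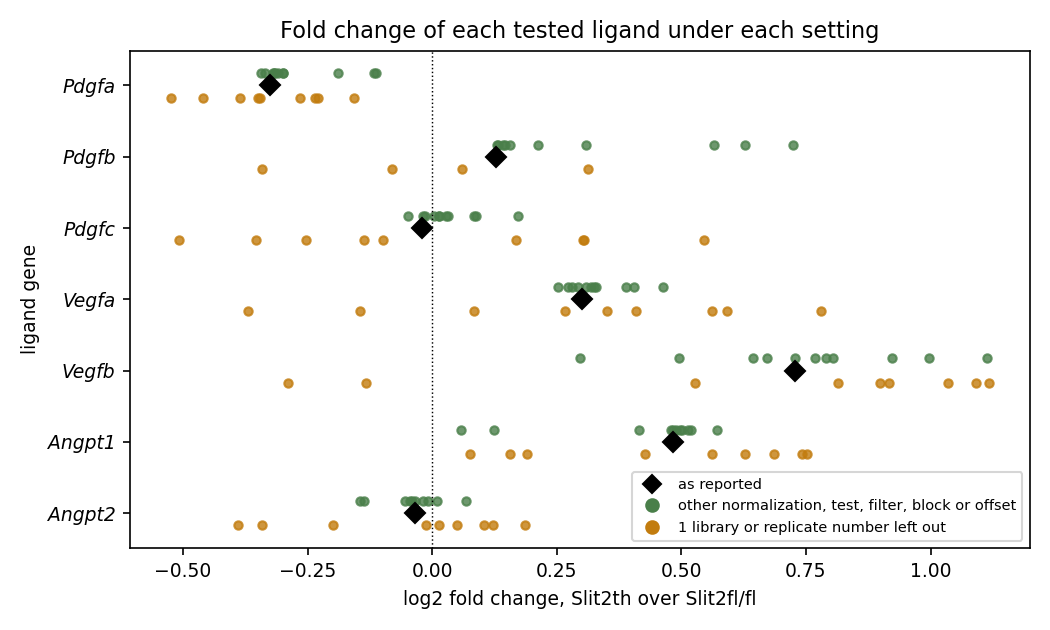
Log2 fold change of Slit2th over Slit2fl/fl for each tested ligand as reported (black diamonds), under other normalizations, tests, filters, the replicate block or corrected offsets (green), and with 1 library or 1 replicate number left out (orange). All points of Pdgfa lie below 0 (-0.52 to -0.11) and all points of Angpt1 above 0 (0.06 to 0.75), while Vegfb runs from -0.29 to 1.12.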

How the data were processed

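RNA was extracted from the cultures, libraries were made with the Illumina TruSeq kit, and per the paper's methods reads were aligned with HISAT2 to mm10, while the submitters' processing notes name GRCm39. The authors deposited whole-number read counts per gene, not normalized, with no coordinates, so the build cannot be settled from the file; the counting program, strand setting and annotation are not given in the sources used here. Positions, exon lengths and GC content were taken from GENCODE M21 (GRCm38) by gene identifier (20166 of 20173 found).

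The counts were fitted by edgeR 4.0.16 under R 4.3.3, with TMM scaling, genes kept at 1 CPM or more in 3 or more libraries, the quasi-likelihood test without covariates, and Benjamini-Hochberg adjusted p under 0.05. The SE is the log2 fold change divided by the square root of F. DESeq2 1.42.0 and limma 3.58.1 were alternatives, as were other scalings, filters, GC- or length-corrected offsets, a block for the replicate number, and fits that left out libraries. Single genes were compared by exact permutation of log2(CPM + 0.5).

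The members and lists were chosen with earlier results of these data known. Named were all members and receptors, Slit2, the 3 most abundant genes of each other list with any past the adjusted threshold, and the 2 most abundant genes of each marker list; some markers of the neuronal and glial lists are not reported here, and the sums leave them out.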

Additional observations from a re-analysis of the deposited data

How the results depend on the processing

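No ligand passed the adjusted threshold in any fit, nor an unadjusted p of 0.05. Over all genes, 0 passed the adjusted threshold as reported, 34 with DESeq2 and 7 without a filter; leaving out libraries gave 0 to 378, with 1 without Slit2fl/fl replicate 1 and 378 without replicate 1 of both groups. The pathway lists gave 0 genes with any 1 library left out and 1 without replicate 1 of both groups (Higd1a, adjusted p = 0.000869). Log2 fold changes that turned sign were those of Angpt2 (0.01 with limma-voom, 0.067 with length-corrected offsets), Pdgfc (0.013 with DESeq2 size factors and 0.013 with DESeq2, 0.083 with limma-voom, 0.004 without a filter, 0.087 with GC-corrected and 0.028 with length-corrected offsets), Pdgfrb (-0.11 with limma-voom), Furin (0.16, GC-corrected), Egln1 (0.011 with library totals, 0.37 GC-corrected, 0.076 length-corrected), Aldoa (0.32 GC-corrected, 0.056 length-corrected) and Bnip3l (-0.048, GC-corrected). Ranges with libraries left out that crossed 0 were -0.37 to 0.78 (Vegfa), -0.29 to 1.12 (Vegfb), -0.39 to 0.19 (Angpt2), -0.34 to 0.31 (Pdgfb), -0.51 to 0.55 (Pdgfc), -0.16 to 0.76 (Flt1), -0.98 to 0.99 (Pdgfrb), -0.83 to 0.41 (Furin), -0.062 to 0.995 (Adamts2), -0.51 to 0.27 (Egln1) and -0.043 to 0.33 (Bnip3l). The cause was not tested. The order of ligands gave 0 adjusted pairs also with the longest transcript as length or a pseudocount of 0.5 RPKM. Fits that leave 1 library out of a group pool the spread over groups.

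Deviations of same-numbered libraries from their group means correlated at 0.26, 0.21 and 0.06 for replicates 1, 2 and 3, and Slit2fl/fl replicate 2 correlated more with Slit2th replicate 3 (0.22), so the numbers were not taken to pair the libraries. In the fit with the replicate block, 0 genes passed the adjusted threshold, Pdgfc was at 0.031, Pdgfrb at 0.024 and Higd1a at -1.83 (edgeR, adjusted p = 0.262); with the block and GC-corrected offsets, Pdgfc was at 0.17, Furin at 0.24, Egln1 at 0.31, Aldoa at 0.36 and Bnip3l at -0.063.

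Depth limits the low ligands: Vegfc, Pgf and Pdgfd had 5 to 10 reads in 6 libraries, and Angpt2 and Pdgfb 15 to 18.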
